A study of Mus musculus with 56 samples.

Results

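The hypusine pathway genes are *Eif5a*, *Eif5a2*, *Dhps* and *Dohh*, chosen by name as the substrates and the enzymes of hypusine synthesis, 4 of the 47937 genes listed in both count tables. The choice was made with earlier results of these data known. All 4 passed the low-count filter in each table, so no member is missing from any test. Naive CD4+ T cells, for which the study's methods describe negative selection, came from spleen and lymph nodes of C57BL/6 mice. They were activated with antibodies to CD3 and CD28 and IL-2 and polarized in vitro into TH1, TH2, TH17 or Treg cells, and mRNA was sequenced on day 4. *Odc*-ΔT mice carry loxP-flanked exons of *Odc* and *Dohh*-ΔT mice carry loxP-flanked exons of *Dohh*. In both lines Cre is driven by the CD4 promoter, so deletion is limited to cells that have expressed Cre, and the WT controls lacked Cre. One table holds the libraries labelled *Odc*-/- (4 each in TH1, TH17 and Treg cells, 3 in TH2 cells, where replicate 1 was not analysed here) with 4 WT libraries per subset. The other holds 3 libraries labelled *Dohh*-/- and 3 other WT libraries per subset. The study's methods give a typical young adult age for all its strains, with littermates matched for age and sex, but no age for each library. Whether each replicate came from a separate mouse is not given in the sources used here, so the p-values measure the spread between these libraries.

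Hypusine is an amino acid formed after translation on a single lysine of the translation factor eIF5A, and eIF5A is the protein known to carry it. *Dhps* encodes deoxyhypusine synthase, which moves the aminobutyl part of spermidine onto that lysine. *Dohh* encodes deoxyhypusine hydroxylase, an iron-containing enzyme that completes the residue. Hypusinated eIF5A helps the ribosome form peptide bonds at slow sites such as stretches of proline and also acts in termination. *Eif5a* encodes the widely expressed form, and *Eif5a2* a paralog with a narrower range of tissues. Spermidine is made from putrescine, the product of ornithine decarboxylase (the gene *Odc1*, written *Odc* for these mice), so that both deletions lie on the same route to hypusine, 1 before the substrate and 1 at the last enzyme.

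*Eif5a* (ENSMUSG00000078812) lies on the minus strand of chromosome 11 of GRCm38 from 69916714 to 69921958, and *Eif5a2* (ENSMUSG00000050192) on the plus strand of chromosome 3 from 28781276 to 28798846. *Dhps* (ENSMUSG00000060038) lies on the plus strand of chromosome 8 from 85071757 to 85075162, and *Dohh* (ENSMUSG00000078440) on the plus strand of chromosome 10 from 81384428 to 81388352. The joined exons of all transcripts of a gene, used here as its length, came to 2377 bases for *Eif5a*, 5027 for *Eif5a2*, 2324 for *Dhps* and 2048 for *Dohh*. The coding sequences of *Eif5a* (462 bases) and *Eif5a2* (459 bases) were identical at 332 of 459 bases (72.3%) with no identical run beyond 14 bases, and their transcripts shared no stretch of 50 bases, which bears on whether reads of that length or more can be told apart. The 9 codons around the modified lysine, codon 50 of both, are shown because they are the site that *Dhps* and *Dohh* act on, with the lysine codon in capitals and the strand as in the mRNA.
Eif5a: tcgaagactggcAAGcatggccatgcc
Eif5a2: tccaagactgggAAGcatggtcatgcc
Of these 27 bases, 24 were identical. Both genes code the lysine with the same codon. *Eif5a* also shared 94 of its 2625 stretches of 50 bases (3.58%) with the pseudogene *Eif5al3-ps*, which held 0 to 14 counts per library. It shared 53 (2.02%) with the pseudogene *AC125203.1*, which was not analysed here, and 3 (0.114%) with *Gm14016*, which held 0 to 2 counts. The exons of *Dhps* overlap those of *Wdr83* on the other strand over 128 bases (5.51%), and the strand setting of the counting is not given in the sources used here. The exons of *Dohh* overlap the model *Gm48551* on the same strand over 972 bases (47.5%), and that model was not analysed here.

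Because these are knockout libraries, the deleted genes were looked at first, although their whole-gene counts do not check the deletions. *Odc1* ranged from 424 to 679.8 CPM (counts divided by the TMM-scaled library size, the usual CPM scale) in the 15 libraries labelled *Odc*-/- and from 357 to 859.9 CPM in the 16 WT libraries. Its log2 difference was 0.26 in TH1, -0.20 in TH2, -0.40 in TH17 and 0.20 in Treg cells, and only the difference in TH17 cells passed the test (adjusted p = 0.0416 from edgeR). *Dohh* was higher, not lower, in the TH1, TH2 and Treg libraries labelled *Dohh*-/-. In TH17 cells its groups overlapped, and the log2 difference of 0.41 did not pass (adjusted p = 0.189 from edgeR). The deleted exons 2 to 4 hold 647 of the 2048 exon bases of *Dohh* (31.6%), and the count of the whole gene cannot show which exons the reads came from. The *Odc* allele likewise has only some of its exons flanked by loxP, so the same limit holds for *Odc1*. The study assessed the deletions by other measures as well, which were not analysed here. The sum of 3 TH1 markers did separate the labels in TH2, TH17 and Treg cells. It was at least 111 CPM in libraries labelled *Odc*-/- against at most 51.0 CPM in their WT libraries, and at least 157 CPM in libraries labelled *Dohh*-/- against at most 26.4 CPM. In TH1 cells the sum overlapped in the *Odc* table (1246 to 3144 CPM against 654 to 2141 CPM) and not in the *Dohh* table (2939 to 4511 CPM against 287 to 372 CPM). Of these 3 markers *Ifng* rose (adjusted p below 0.05 from edgeR) in 8 of 8 comparisons and *Tbx21* in 7, whereas *Cxcr3* rose in 3 and fell in 2. The libraries are called by their labels throughout.

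Each library of the *Odc* table held 5905374 to 9145214 counts in all, and each of the *Dohh* table held 6572148 to 12576933. In these libraries *Eif5a* held 4892 to 25192 counts per library, *Dhps* 175 to 724, *Dohh* 204 to 1010 and *Eif5a2* 36 to 217, so *Eif5a2* had the fewest counts of the 4. Some libraries stood apart before any comparison. Among *Odc*-table WT libraries, replicate 4 had the highest level in all 16 groups of a member and a subset. In the TH1 libraries labelled *Dohh*-/-, replicate 2 was the highest and replicate 3 the lowest for *Eif5a*, *Dhps* and *Dohh*. Markers of other cells moved with the labels too. The summed level of 8 basophil or mast cell markers ranged from 26.7 to 355 CPM in libraries labelled *Odc*-/- against 5.07 to 48.3 CPM in their WT libraries, and from 53.9 to 1354 CPM in libraries labelled *Dohh*-/- against 3.29 to 24.2 CPM. In each of the 8 comparisons 7 or 8 of the 8 markers were called higher, against 8.35% to 17.5% of all genes. None was at 0 in all libraries labelled as deficient of a subset. The sum of 6 myeloid markers had its highest medians in TH17 and Treg libraries labelled as deficient. In the *Dohh* table it ranged from 98.3 to 4519 CPM against 34.0 to 35.3 CPM in TH17 cells and from 79.4 to 3060.2 CPM against 20.2 to 24.8 CPM in Treg cells, with *Itgam* at 0. For the *Odc* deletion it ranged from 38.1 to 275 CPM against 20.4 to 44.3 CPM in TH17 cells and from 76.6 to 334 CPM against 20.6 to 42.9 CPM in Treg cells. It was lower in TH2 cells labelled *Odc*-/- (6.33 to 8.66 CPM against 14.3 to 19.0 CPM) and overlapped its WT libraries in TH1 cells of both tables and in TH2 cells of the *Dohh* table. The lower sum in TH2 cells came from *Cd68* (log2 difference -1.64, adjusted p = 0.000454 from edgeR), and the other 4 markers tested there had values above 0 that did not pass (median of the 5, 1.15). The sum of 5 B cell markers reached 486 CPM in libraries labelled *Odc*-/- and 91.8 CPM in their WT libraries, and every library labelled *Odc*-/- lay above the WT libraries of its subset. In the *Dohh* table it ranged from 10.6 to 25.0 CPM against 5.84 to 6.65 CPM in Treg cells, and the labels overlapped in TH1, TH2 and TH17 cells. Among CD8 T or NK cell markers *Klrb1c* rose in 6 comparisons and *Klrd1* and *Cd8a* in 5 each, whereas *Cd8b1* rose in 0 and fell in 3. Of 36 tests of the 5 CD8 T or NK cell markers, 20 were called higher (13.5% of tests over all genes) and 2 lower. Their sum ranged from 480.2 to 564 CPM against 40.3 to 57.5 CPM in WT libraries in Treg cells labelled *Dohh*-/-, from 426 to 552 CPM against 90.7 to 122 CPM in TH17 cells labelled *Dohh*-/-, and from 241 to 365 CPM against 35.6 to 58.8 CPM in Treg cells labelled *Odc*-/-. The labels did not overlap either in TH1 (163 to 490.1 CPM against 37.7 to 50.2 CPM) and TH2 cells (48.5 to 84.3 CPM against 23.1 to 27.0 CPM) labelled *Dohh*-/- or in TH17 cells labelled *Odc*-/- (166 to 231 CPM against 132 to 161 CPM), and they overlapped in TH1 cells of the *Odc* table. In TH2 cells labelled *Odc*-/- it ranged from 13.6 to 17.6 CPM against 16.6 to 24.5 CPM. The sum of 5 erythroid markers reached 54.5 CPM in libraries labelled *Dohh*-/- against 1.36 CPM in their WT libraries, and 2.83 against 3.07 CPM in the *Odc* table, with 10 of 16 tests called higher and 1 lower over both tables. The sum of 8 T cell markers ranged from 1554 to 3159.6 CPM in libraries labelled *Dohh*-/-, all below the 3223 to 4058 CPM of their WT libraries, and from 1976 to 3484 CPM in libraries labelled *Odc*-/- against 2185 to 4218 CPM. Of these markers *Cd28* fell (adjusted p below 0.05 from edgeR) in 6 of 8 comparisons and *Cd5* in 5. *Cd3d*, *Cd3e*, *Cd3g*, *Cd247* and *Lck* fell in 2 each, and *Cd3g* rose in 1. *Cd4*, which defines the labelled cell type, fell in 8 of 8 comparisons. Its mean was 346.7 to 511 CPM in groups labelled *Odc*-/- against 659 to 883 CPM in their WT groups, and 36.1 to 61.3 CPM in groups labelled *Dohh*-/- against 702 to 941 CPM. In WT libraries the sums of the TH1, TH2 and TH17 markers were each highest in their own subset without overlap. The sum of the 3 Treg markers was not, at 2924 to 3816 CPM in Treg against 3349 to 4577 CPM in TH1 cells of the *Odc* table and 1631 to 2042 CPM against 2385 to 2746 CPM in the *Dohh* table. *Foxp3* alone, the defining factor of Treg cells, had a mean of 478 and 576 CPM in WT Treg cells against at most 44.6 CPM in the other WT groups. In Treg libraries labelled *Dohh*-/- *Foxp3* was at 106 ± 63.5 CPM (SD, n = 3). The part of these markers in the results below was not tested, and in bulk samples fewer cells of a type and less RNA per cell cannot be told apart.

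In WT cells the 4 genes lay at very different levels. Per kilobase of exon, *Eif5a* had a mean of 489 CPM in the 16 WT libraries tabulated with *Odc*-/- and 357 CPM in the 12 tabulated with *Dohh*-/-, above 99.4% and 99.0% of the genes ranked. *Dohh* had 17.2 and 18.8 CPM per kilobase, above 77.3% and 80.5% of the genes. *Dhps* had 12.4 and 15.3 CPM per kilobase, above 69.5% and 76.3%. *Eif5a2* had 2.63 and 1.44 CPM per kilobase, above 32.9% and 26.8%. The substrate gene was thus far more abundant than the genes of both enzymes, and the paralog *Eif5a2* lay below the middle of the genes ranked. In WT groups the ratio of *Eif5a* to *Eif5a2* per kilobase was between 114 ± 8.88 (SD, n = 4, Treg cells of the *Odc* table) and 509.7 ± 136 (SD, n = 3, TH2 cells of the *Dohh* table).

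Transcripts of all 4 genes were higher in libraries labelled as deficient than in WT libraries. The log2 difference was above 0 in 32 of 32 combinations of gene and comparison, from 0.05 to 1.71, with a mean of 1.03 for *Dohh*, 0.99 for *Eif5a*, 0.73 for *Dhps* and 0.67 for *Eif5a2* over the 8 comparisons. In 25 of the 32 the gene rose (adjusted p below 0.05 in edgeR's quasi-likelihood test), and in 14 the rise was over 2-fold as well, which is named a call here. A stricter test, of the 2-fold change itself, left 1 of these 14, *Eif5a* in Treg cells labelled *Dohh*-/-. Many other genes rose too, so each count is given with the share of all tested genes that met the same rule in the same direction (13839 genes in the *Odc* table, 13897 in the *Dohh* table). For libraries labelled *Odc*-/-, in TH1 cells 2 of the 4 rose (background 29.1%), 1 by over 2-fold (10.2%), and 2 did not overlap (21.9%). In TH2 cells 4 of the 4 rose (background 29.9%), 2 by over 2-fold (11.5%), and 4 did not overlap (30.6%). In TH17 cells 3 of the 4 rose (background 25.6%), 0 by over 2-fold (8.35%), and 3 did not overlap (21.5%). In Treg cells 3 of the 4 rose (background 32.9%), 2 by over 2-fold (13.9%), and 3 did not overlap (25.2%). For libraries labelled *Dohh*-/-, in TH1 cells 3 of the 4 rose (background 25.9%), 2 by over 2-fold (14.8%), and 2 did not overlap (23.7%). In TH2 cells 4 of the 4 rose (background 23.8%), 3 by over 2-fold (14.3%), and 4 did not overlap (31.9%). In TH17 cells 2 of the 4 rose (background 27%), 1 by over 2-fold (17.3%), and 3 did not overlap (29.9%). In Treg cells 4 of the 4 rose (background 28.4%), 3 by over 2-fold (17.5%), and 4 did not overlap (34.3%). Groups that did not overlap are those in which each library labelled as deficient was above each WT library. The share of the 4 genes that rose was above the background in 8 of 8 comparisons, and the share over 2-fold was below it in TH17 cells of the *Odc* table. The median log2 difference of the 4 lay between 0.55 and 1.14, and that of all tested genes between -0.0019 and 0.07.

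**Figure D1:**
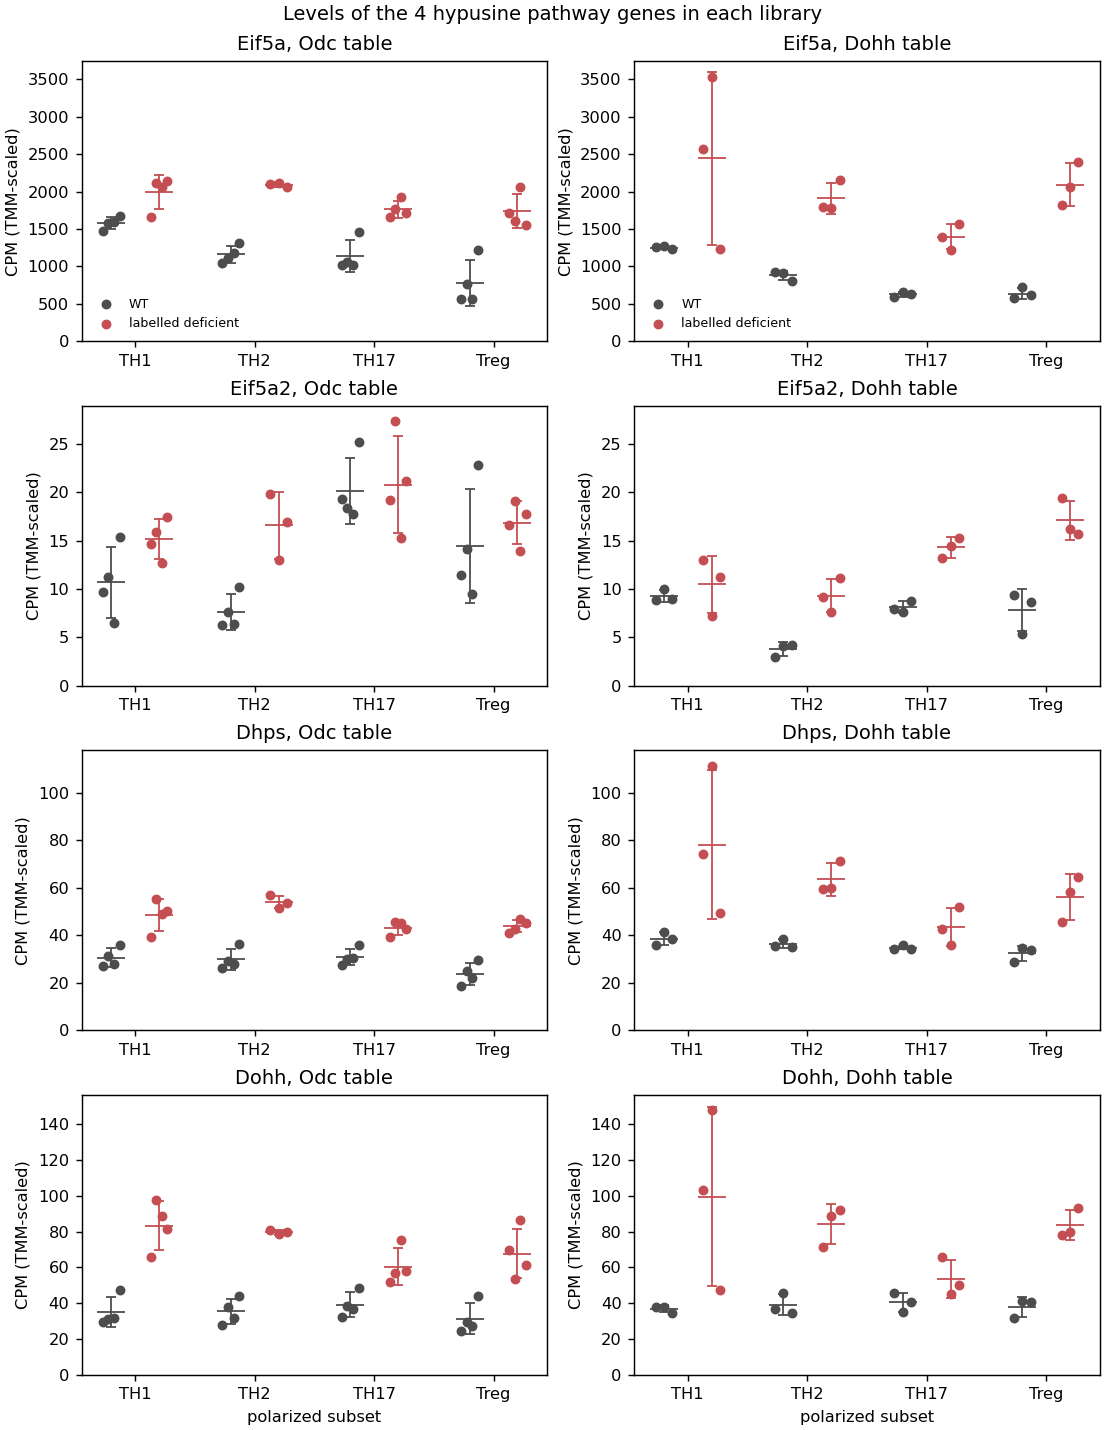
Level of *Eif5a*, *Eif5a2*, *Dhps* and *Dohh* (rows, TMM-scaled CPM on linear axes that start at 0) in each library of the *Odc* table (left) and the *Dohh* table (right), by polarized subset. Points are libraries, grey for WT and red for libraries labelled as deficient, and the lines give the group mean and SD. For *Dhps* the red points lie above the grey ones in all 8 groups of a subset and a table, and 1 red TH1 library of the *Dohh* table lies at the WT level for *Eif5a*.

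**Figure D2:**
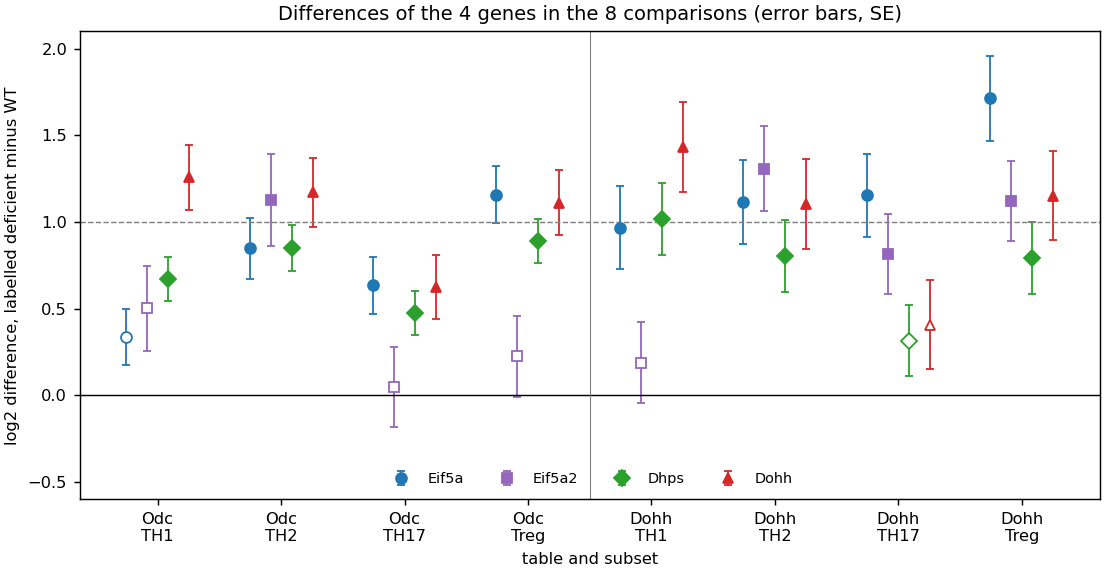
Log2 difference of each gene between libraries labelled as deficient and WT libraries (vertical axis) in the 8 comparisons (horizontal axis, by table and subset), with error bars of 1 standard error. Filled symbols had an adjusted p below 0.05 in edgeR's test, open symbols did not, and the dashed line marks a 2-fold rise. All 32 symbols lie above 0, 25 of them are filled, and the open ones are mostly those of *Eif5a2* (4 of 7).

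*Eif5a*, the gene of the hypusinated factor itself, rose in 7 of 8 comparisons, most in Treg cells. In Treg libraries labelled *Dohh*-/- its levels were 1821, 2059 and 2389 CPM, against 576, 617 and 720.0 CPM in WT libraries. The lowest of these deficient libraries was over 2-fold above the highest WT library, and the log2 difference was 1.71 (SE 0.243, adjusted p = 6.99e-06 from edgeR). In Treg libraries labelled *Odc*-/- the levels were 1554, 1609, 1718 and 2063 CPM, against 564, 565, 762 and 1224 CPM. The highest WT library, replicate 4, was well above the other 3 but below every library labelled *Odc*-/-, and the log2 difference was 1.16 (SE 0.166, adjusted p = 1.66e-06 from edgeR). In TH2 cells *Eif5a* had 2054, 2106 and 2112 CPM in libraries labelled *Odc*-/- and 1041, 1112, 1178 and 1311 CPM in WT libraries, a log2 difference of 0.85 (SE 0.175, adjusted p = 0.000191 from edgeR). The TH2 libraries labelled *Dohh*-/- had 1781, 1795 and 2151 CPM and their WT libraries 809, 907 and 928 CPM, a log2 difference of 1.12 (SE 0.24, adjusted p = 0.000831 from edgeR). Neither pair of TH2 groups overlapped. In TH17 cells the libraries labelled *Odc*-/- held 1666, 1709, 1761 and 1922 CPM and WT libraries 1013, 1022, 1056 and 1453 CPM, a log2 difference of 0.63 (SE 0.164, adjusted p = 0.00265 from edgeR). The TH17 libraries labelled *Dohh*-/- held 1225, 1399 and 1562 CPM and WT libraries 593, 628 and 659.6 CPM, a log2 difference of 1.15 (SE 0.24, adjusted p = 0.000486 from edgeR). Again the groups did not overlap. TH1 cells had the highest WT levels, and there the groups overlapped in both tables. Libraries labelled *Odc*-/- held 1657, 2062, 2114 and 2139 CPM and WT libraries 1468, 1583, 1587 and 1674 CPM, and the log2 difference of 0.34 (SE 0.164, adjusted p = 0.0796 from edgeR) did not pass the test. It passed with only the 2 groups in the fit (adjusted p = 0.0182), without replicate 1 of the libraries labelled *Odc*-/- (0.0465, against up to 0.185 without another library), with the replicate number as a block (0.0458), and with all WT libraries of number 4 left out (0.00477, chosen after the data were seen). That block, here and below, gave libraries of a table with the same number the same shift in both genotypes. The numbers do not pair deficient with WT libraries, so passes with it need that caution. The TH1 libraries labelled *Dohh*-/- held 1228, 2575 and 3531 CPM and WT libraries 1233, 1253 and 1269 CPM. Replicate 3 was thus just below the WT libraries and the other 2 far above. The log2 difference of 0.97 (SE 0.239, adjusted p = 0.00219 from edgeR) was 0.61 without replicate 2 and 1.30 without replicate 3, and it did not pass with only the 2 groups in the fit (adjusted p = 0.0833).

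*Eif5a2*, the low-abundance paralog, rose in 4 of 8 comparisons, and in both tables in TH2 cells, where its WT level was lowest. TH2 libraries labelled *Odc*-/- held 13.0, 16.9 and 19.9 CPM and WT libraries 6.24, 6.42, 7.60 and 10.2 CPM, a log2 difference of 1.13 (SE 0.264, adjusted p = 0.000683 from edgeR). TH2 libraries labelled *Dohh*-/- held 7.64, 9.23 and 11.1 CPM and WT libraries 2.96, 4.12 and 4.26 CPM, a log2 difference of 1.31 (SE 0.244, adjusted p = 0.000222 from edgeR). The groups did not overlap in either table. In TH17 cells *Eif5a2* stood at 13.2, 14.5 and 15.3 CPM in libraries labelled *Dohh*-/- and at 7.61, 7.99 and 8.78 CPM in WT libraries, a log2 difference of 0.81 (SE 0.232, adjusted p = 0.00599 from edgeR). In Treg cells it stood at 15.7, 16.3 and 19.4 CPM in libraries labelled *Dohh*-/- and at 5.35, 8.69 and 9.41 CPM in WT libraries, a log2 difference of 1.12 (SE 0.232, adjusted p = 0.000411 from edgeR). These groups did not overlap either. In the *Odc* table the same subsets showed no rise that passed. TH17 libraries labelled *Odc*-/- held 15.3, 19.3, 21.2 and 27.3 CPM and WT libraries 17.8, 18.4, 19.4 and 25.2 CPM, a log2 difference of 0.05 (SE 0.231, adjusted p = 0.883 from edgeR), and it turned negative without replicate 2 of the libraries labelled *Odc*-/- (-0.11) or replicate 3 of the WT libraries (-0.010). Treg libraries labelled *Odc*-/- held 14.0, 16.6, 17.7 and 19.2 CPM and WT libraries 9.45, 11.4, 14.2 and 22.8 CPM, a log2 difference of 0.22 (SE 0.235, adjusted p = 0.417 from edgeR). Here WT replicate 4 was above every library labelled *Odc*-/-, and the log2 difference was 0.53 without it (adjusted p = 0.0424 from edgeR). Leaving out any 1 library gave 0.067 to 0.53, with adjusted p up to 0.828. In TH1 cells the groups overlapped in both tables. The levels were 12.7, 14.6, 15.9 and 17.5 CPM against 6.53, 9.68, 11.2 and 15.4 CPM in WT libraries of the *Odc* table, a log2 difference of 0.50 (SE 0.245, adjusted p = 0.0804 from edgeR), which passed without WT replicate 4 (0.73, adjusted p = 0.017) and with the replicate number as a block (0.53, 0.00592). Leaving out any 1 library gave 0.31 to 0.73, with adjusted p up to 0.298. With the *Dohh* deletion they were 7.26, 11.3 and 13.0 CPM against 8.86, 8.97 and 9.96 CPM, a log2 difference of 0.19 (SE 0.233, adjusted p = 0.518 from edgeR). That last value lay from 0.031 to 0.39 without any 1 library (adjusted p 0.198 to 0.938), and it was -0.015 when libraries were scaled by their totals alone (an alternative added after the data were seen), which moved the median of all genes by -0.22 in that comparison and by -0.06 to 0.04 in the other 7.

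*Dhps*, the gene of the first enzyme, rose in 7 of 8 comparisons, by log2 differences between 0.47 and 1.02, and in all 8 each library labelled as deficient was above each WT library. In the *Odc* table TH1 libraries labelled *Odc*-/- held 39.1, 49.1, 50.4 and 55.4 CPM of *Dhps* and WT libraries 27.0, 27.9, 31.3 and 36.0 CPM, a log2 difference of 0.67 (SE 0.127, adjusted p = 8.95e-05 from edgeR). In TH2 cells its levels were 51.3, 53.7 and 56.7 CPM against 26.2, 27.9, 29.3 and 36.3 CPM in WT libraries, a log2 difference of 0.85 (SE 0.134, adjusted p = 9.64e-06 from edgeR). In TH17 cells they were 39.1, 42.4, 44.9 and 45.4 CPM against 27.5, 30.1, 30.3 and 35.8 CPM, a log2 difference of 0.47 (SE 0.126, adjusted p = 0.00327 from edgeR). The highest WT library of each of these subsets was replicate 4, and it was below every library labelled *Odc*-/-. In Treg cells *Dhps* stood at 40.8, 42.7, 45.0 and 46.9 CPM in libraries labelled *Odc*-/- and at 18.5, 21.9, 24.8 and 29.4 CPM in WT libraries, a log2 difference of 0.89 (SE 0.127, adjusted p = 1.52e-06 from edgeR). In the *Dohh* table TH1 libraries labelled *Dohh*-/- held 49.2, 74.0 and 111 CPM, against 35.7, 38.6 and 41.1 CPM in WT libraries, a log2 difference of 1.02 (SE 0.207, adjusted p = 0.000402 from edgeR). The spread within this deficient group was wider than the gap between its lowest library and WT. The log2 difference was 0.80 (SE 0.207, adjusted p = 0.00355 from edgeR) in TH2 cells, with 59.4, 59.7 and 71.3 CPM against 35.2, 35.5 and 38.5 CPM. It was 0.79 (SE 0.207, adjusted p = 0.00296 from edgeR) in Treg cells, with 45.5, 58.3 and 64.5 CPM against 28.8, 33.7 and 34.6 CPM. TH17 cells were the exception. Their libraries labelled *Dohh*-/- held 35.8, 42.7 and 51.8 CPM and WT libraries 34.3, 34.4 and 35.7 CPM, and the log2 difference of 0.32 (SE 0.207, adjusted p = 0.207 from edgeR) did not pass, nor did it without any 1 library (0.19 to 0.44, adjusted p 0.115 to 0.515).

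*Dohh*, the gene of the second enzyme, rose in 7 of 8 comparisons and by over 2-fold in 6, the most of the 4 genes. In TH1 cells it stood at 65.5, 81.5, 88.7 and 97.9 CPM in libraries labelled *Odc*-/- and at 29.5, 30.9, 31.6 and 47.5 CPM in WT libraries, a log2 difference of 1.26 (SE 0.188, adjusted p = 7.63e-06 from edgeR). In TH2 cells it stood at 78.4, 79.6 and 81.0 CPM against 27.8, 31.7, 37.9 and 44.2 CPM, a log2 difference of 1.17 (SE 0.199, adjusted p = 2.19e-05 from edgeR). In Treg cells it stood at 53.7, 61.4, 69.5 and 86.2 CPM against 24.6, 27.3, 29.3 and 44.2 CPM, a log2 difference of 1.11 (SE 0.187, adjusted p = 1.49e-05 from edgeR). No group labelled *Odc*-/- overlapped its WT group, and the smallest rise was in TH17 cells. There *Dohh* had 51.6, 56.7, 58.2 and 75.4 CPM in libraries labelled *Odc*-/- and 32.5, 36.7, 38.6 and 48.7 CPM in WT libraries, a log2 difference of 0.63 (SE 0.186, adjusted p = 0.00753 from edgeR). In libraries labelled *Dohh*-/-, where *Dohh* is the deleted gene, the levels in TH1 cells were 47.5, 103 and 148 CPM against 34.7, 37.8 and 38.1 CPM in WT libraries, a log2 difference of 1.43 (SE 0.259, adjusted p = 0.000132 from edgeR). Replicate 3, the library at the WT level for *Eif5a*, was here the lowest of its group but above WT. TH2 libraries labelled *Dohh*-/- held 71.6, 88.6 and 92.2 CPM and WT libraries 34.8, 37.0 and 45.8 CPM, a log2 difference of 1.10 (SE 0.257, adjusted p = 0.00167 from edgeR). Treg libraries labelled *Dohh*-/- held 78.3, 79.8 and 93.4 CPM and WT libraries 31.5, 40.4 and 41.5 CPM, a log2 difference of 1.15 (SE 0.258, adjusted p = 0.000844 from edgeR). In TH17 cells the groups overlapped. *Dohh* had 45.2, 50.2 and 65.5 CPM in libraries labelled *Dohh*-/- and 35.0, 40.4 and 45.9 CPM in WT libraries, and the log2 difference of 0.41 (SE 0.256, adjusted p = 0.189 from edgeR) did not pass, nor did it without any 1 library (0.23 to 0.52, adjusted p 0.139 to 0.51). These counts cover all exons, and the share of reads from exons 2 to 4 was not analysed here.

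Whether the effect of a deletion differs between subsets was asked with an interaction term. In the *Odc* table, 1 of the 4 genes passed, *Eif5a*, against 34.8% of all genes. Its log2 difference ranged over 0.82 between subsets, lowest in TH1 and highest in Treg cells (adjusted p = 0.036 from edgeR), and leaving out single libraries gave adjusted p-values from 0.000108 to 0.0762, with 8 of 31 at or above 0.05 (TH1 replicate 1 and Treg replicates 1 and 3 labelled *Odc*-/-, TH1 WT replicates 2 and 4 and Treg WT replicates 1, 2 and 3). The other ranges were 1.08 for *Eif5a2* (adjusted p = 0.0705 from edgeR), 0.63 for *Dohh* (0.179) and 0.42 for *Dhps* (0.187). *Eif5a2* passed with DESeq2 (adjusted p = 0.0324) and in 6 of 31 fits without 1 library, which gave adjusted p-values from 0.0375 to 0.2. With the replicate number as a block 3 of the 4 passed in the *Odc* table, *Eif5a2* (adjusted p = 0.00361 from edgeR) and *Dhps* (0.0426) beside *Eif5a*, and with no low-count filter none passed (0.0528 for *Eif5a*). For the *Dohh* deletion none of the 4 passed, against 17.9% of all genes. There the ranges were 1.12 for *Eif5a2* (adjusted p = 0.0719 from edgeR, unadjusted p = 0.0153), 1.02 for *Dohh* (0.17), 0.75 for *Eif5a* (0.316) and 0.70 for *Dhps* (0.285). DESeq2 gave 1 gene past the threshold, *Eif5a2* (adjusted p = 0.0356). Without replicate 3 of the TH1 libraries labelled *Dohh*-/-, *Dohh* (range 1.37, adjusted p = 0.00389 from edgeR) and *Dhps* (0.97, 0.0266) passed, and without replicate 2 of the same libraries their ranges were 0.69 and 0.45 and neither passed. Over the 24 fits without 1 library the adjusted p reached 0.343 for *Dohh* and 0.472 for *Dhps*.

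The effects of both deletions were then compared within each subset, as the difference between the log2 differences in 1 fit of both tables (12924 genes). In Treg cells 1 of the 4 genes passed, against 29.9% of all genes. This was *Eif5a2*, whose rise was larger by 0.92 (SE 0.331) in the *Dohh* table (adjusted p = 0.0299 from edgeR), and it did not pass without replicate 1 of the Treg libraries labelled *Dohh*-/- (adjusted p = 0.0645), without replicate 2 of their WT libraries (0.113) or without replicate 4 of the Treg WT libraries of the *Odc* table (0.100). No member passed in TH1 (background 21.9%), TH2 (18.4%) or TH17 cells (24.5%) with edgeR. Before adjustment, edgeR's p-value was below 0.05 for *Eif5a* in TH1 cells (0.0216), for *Eif5a* (0.0443) and *Eif5a2* (0.0157) in TH17 cells, for *Eif5a* in Treg cells (0.0424, adjusted p = 0.111) and for no member in TH2 cells. *Eif5a* in Treg cells passed without Treg WT replicate 1 (adjusted p = 0.0445 from edgeR) or replicate 3 (0.0422) of the *Odc* table, and without replicate 4 the difference fell to 0.34 (0.349). In TH17 cells *Eif5a2* passed with DESeq2 (adjusted p = 0.0407), with the replicate number as a block (0.0092 from edgeR), at a mean count of at least 50 (0.0449) and without replicate 2 of the TH17 libraries labelled *Odc*-/- (0.0331). DESeq2 put none past the threshold in TH1 or TH2 cells. The difference for *Eif5a* was 0.66 (SE 0.278) in TH1, 0.26 (SE 0.288) in TH2, 0.58 (SE 0.278) in TH17 and 0.58 (SE 0.278) in Treg cells, each larger in the *Dohh* table. Without replicate 3 of the TH1 libraries labelled *Dohh*-/- it passed (1.03, adjusted p = 0.000885 from edgeR), as did *Dhps* (0.68, 0.0103), and without replicate 2 of the same libraries both were further from passing (0.29, 0.52 for *Eif5a* and 0.029, 0.957 for *Dhps*). The differences for *Dhps* lay between -0.10 and 0.38 and those for *Dohh* between -0.16 and 0.20, all with standard errors of 0.23 or more. The tables are separate and each has its own WT libraries, so that the deletion and the table cannot be told apart.

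The order of the levels over subsets was read from WT libraries. *Eif5a* differed between subsets in both tables (adjusted p = 6.11e-05 and 0.00339 from edgeR's F test), as did *Eif5a2* (8.22e-05 and 0.00103). *Dhps* passed in the *Odc* table (0.0258) and not in the *Dohh* table (0.759), and *Dohh* in neither (0.45 and 0.97). The shares of all genes past the test were 71.1% and 40.1%. For the pairs of neighbours below the shares were 21.5% for TH1 and TH2, 47.8% for TH2 and TH17, 34.5% for TH17 and Treg and 48.9% for TH1 and Treg cells of the *Odc* table, and 10.6% for TH1 and TH2, 22.4% for TH1 and TH17, 28.6% for TH2 and Treg and 11.1% for TH17 and Treg cells of the *Dohh* table. *Eif5a* was highest in TH1 cells in both tables. In the *Odc* table it went from 1578 ± 84.4 CPM (SD, n = 4) in TH1 through 1161 ± 115 in TH2 and 1136 ± 212 in TH17 to 779 ± 311 in Treg cells. The neighbours TH1 and TH2 differed by 0.44 (SE 0.164, adjusted p = 0.0523 from edgeR) and TH2 and TH17 by 0.03 (0.895), whereas TH17 and Treg cells differed by 0.55 (0.0103). With the replicate number as a block TH1 and TH2 passed (0.45, adjusted p = 0.0201 from edgeR). In the *Dohh* table the means were 1252 ± 18.0 CPM (SD, n = 3) in TH1, 881 ± 63.1 in TH2, 638 ± 74.2 in Treg and 627 ± 33.1 in TH17 cells, and no 2 neighbours passed (adjusted p = 0.202, 0.158 and 0.988 from edgeR). *Eif5a2* was lowest in TH2 cells in both tables, at 7.62 ± 1.83 CPM (SD, n = 4) and 3.78 ± 0.713 CPM (SD, n = 3). In the *Odc* table TH17 cells had the highest level (20.2 ± 3.42 CPM), then Treg (14.5 ± 5.91) and TH1 cells (10.7 ± 3.69), and no 2 neighbours in this order passed without a block (adjusted p = 0.112, 0.144 and 0.18 from edgeR), whereas all 3 passed with the replicate number as a block (0.00641, 0.0267 and 0.0386). In the *Dohh* table TH1, TH17 and Treg cells lay close together (9.26 ± 0.607, 8.13 ± 0.596 and 7.82 ± 2.17 CPM), and the TH2 level was below that of Treg cells by 1.06 on the log2 scale (adjusted p = 0.00201 from edgeR). *Dhps* in the *Odc* table was lower in Treg cells (23.6 ± 4.60 CPM) than in the other 3 subsets (29.9 to 30.9 CPM), and the F test did not pass without Treg WT replicate 1 (adjusted p = 0.177 from edgeR) or replicate 3 (0.0963), with no low-count filter (0.0502), or with library totals alone as the scaling (0.144), which was added after the data were seen. *Dohh* stayed between 31.3 and 40.4 CPM in the 8 WT groups.

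**Figure D3:**
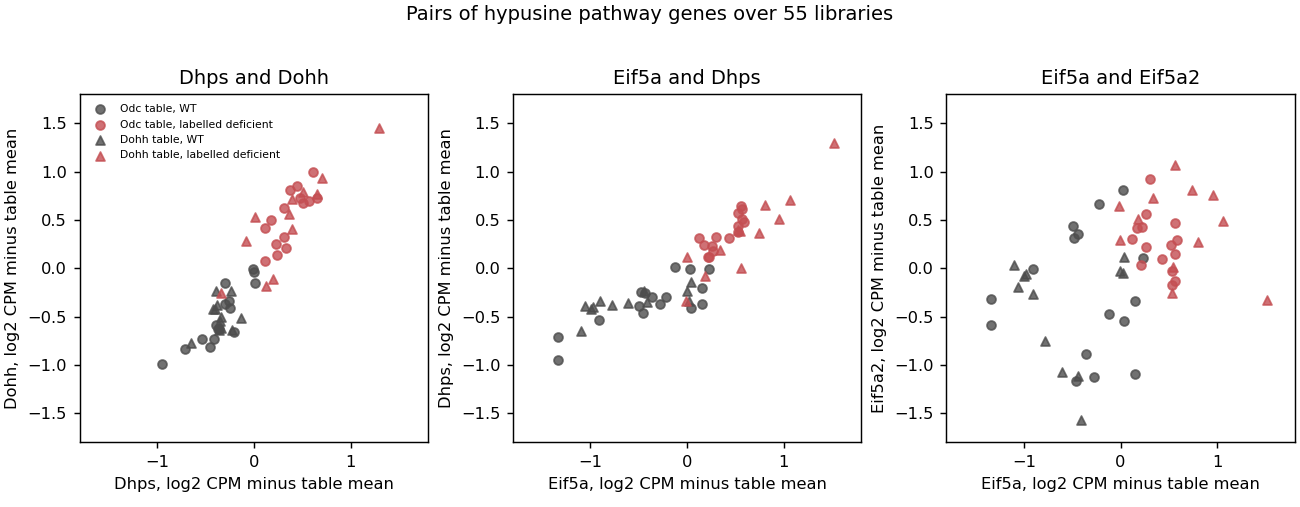
Levels of 3 pairs of genes in 55 libraries, as log2 CPM minus the mean of the library's table. Circles are libraries of the *Odc* table and triangles those of the *Dohh* table, grey for WT and red for libraries labelled as deficient. *Dhps* and *Dohh*, and *Eif5a* and *Dhps*, lie along a rising line in both genotypes, and *Eif5a* and *Eif5a2* do not.

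Correlations between the 4 genes from library to library were read within each genotype. They are descriptions over libraries that share a table's scaling and include several subsets, and genotypes were kept apart because they form separate clusters. Over the 28 WT libraries Pearson's r was 0.77 (Spearman's rho 0.65) for *Dhps* and *Dohh*, 0.76 (0.72) for *Eif5a* and *Dhps* and 0.38 (0.30) for *Eif5a* and *Dohh*. Over the 27 libraries labelled as deficient it was 0.84 (0.83), 0.85 (0.79) and 0.85 (0.83). Leaving out the 2 libraries farthest from the median of the first gene gave 0.70, 0.66 and 0.17 in WT libraries and 0.72, 0.73 and 0.77 in libraries labelled as deficient, so that *Eif5a* and *Dohh* in WT libraries rest on those libraries. For *Eif5a2* with the other 3, r was 0.05 to 0.35 in WT libraries and -0.48 to -0.22 in libraries labelled as deficient. Leaving out 2 libraries in the same way gave 0.016 to 0.25 and -0.51 to 0.069, and the value for *Eif5a* and *Eif5a2* in libraries labelled as deficient changed sign. In WT libraries *Eif5a2* and *Dohh* (r 0.35, rho 0.33, 0.25 with 2 libraries left out) therefore correlated about as much as *Eif5a* and *Dohh* did. With group means removed, r was 0.82 to 0.87 among *Eif5a*, *Dhps* and *Dohh* and 0.11 to 0.20 for *Eif5a2* with them.

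The ratio of *Dohh* to *Dhps* per kilobase gave the balance of the 2 enzyme genes, from counts of whole genes. In libraries labelled *Dohh*-/- such counts cannot show how much of the *Dohh* mRNA held exons 2 to 4. In the *Odc* table the ratio was 1.95 ± 0.0971 (SD, n = 4) in TH1 libraries labelled *Odc*-/- and 1.29 ± 0.159 (SD, n = 4) in WT libraries. The values were 1.68 ± 0.0559 (SD, n = 3) and 1.33 ± 0.113 (SD, n = 4) in TH2, 1.59 ± 0.214 and 1.43 ± 0.0905 in TH17 and 1.75 ± 0.311 and 1.49 ± 0.157 in Treg cells. For the other deletion the ratio was 1.40 ± 0.262 (SD, n = 3) and 1.09 ± 0.105 in TH1, 1.51 ± 0.162 and 1.22 ± 0.119 in TH2, 1.43 ± 0.322 and 1.32 ± 0.200 in TH17 and 1.72 ± 0.210 and 1.32 ± 0.0683 in Treg cells. The groups did not overlap in TH1 and TH2 cells of the *Odc* table and in TH2 and Treg cells of the *Dohh* table. The mean ratio was above 1 in every group and higher in libraries labelled as deficient in 8 of 8 subsets of a table, by less than the SD of those libraries in TH17 cells of both tables and in Treg cells of the *Odc* table. The genes whose levels were most like those of each member over all 55 libraries, both genotypes included, were named by Pearson's r of table-centred log2 CPM. They were *Dctpp1* (r = 0.94), *Ada* (0.93) and *Sfxn1* (0.93) for *Eif5a*, *Wdr18* (0.96), *Mrto4* (0.96) and *Drg2* (0.96) for *Dhps*, and *Wdr18* (0.97) and *Tomm40* (0.96) for *Dohh*. For *Eif5a2* they were *1700052K11Rik*, *Zmpste24* and *Fut8* (r = 0.82 each). *Wdr18* thus led the list of both enzyme genes.

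The promoters of the 4 genes were searched for CACGTG, the canonical E-box bound by proteins of the Myc family among others, in the 250 bases before each RefSeq start on GRCm38.p6. The motif reads the same on both strands, and 6.02% of all 32851 starts hold it in that window. Counted by gene, 1854 of 27025 (6.86%) hold it at any of their starts, and a gene with more starts has more windows to hold it. All 4 genes matched an entry. It was found at 3 of the 6 starts of *Eif5a* and at the start of *Eif5a2*, and not in the windows of *Dhps* and *Dohh*. The matches are shown with 12 bases on each side, 5' to 3' on the gene's strand, with the motif in capitals, because they are the only ones among the members.
Eif5a, chr11:69921443-69921472, minus strand: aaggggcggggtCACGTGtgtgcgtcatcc
Eif5a, chr11:69920791-69920820, minus strand: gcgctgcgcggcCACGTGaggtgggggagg
Eif5a2, chr3:28781123-28781152, plus strand: actaatccgcagCACGTGgggttgccaggg
Eif5a2, chr3:28781148-28781177, plus strand: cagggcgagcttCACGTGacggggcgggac
The first *Eif5a* match serves 2 of its starts. A match is a description of the letters and says nothing of binding.

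**Figure D4:**
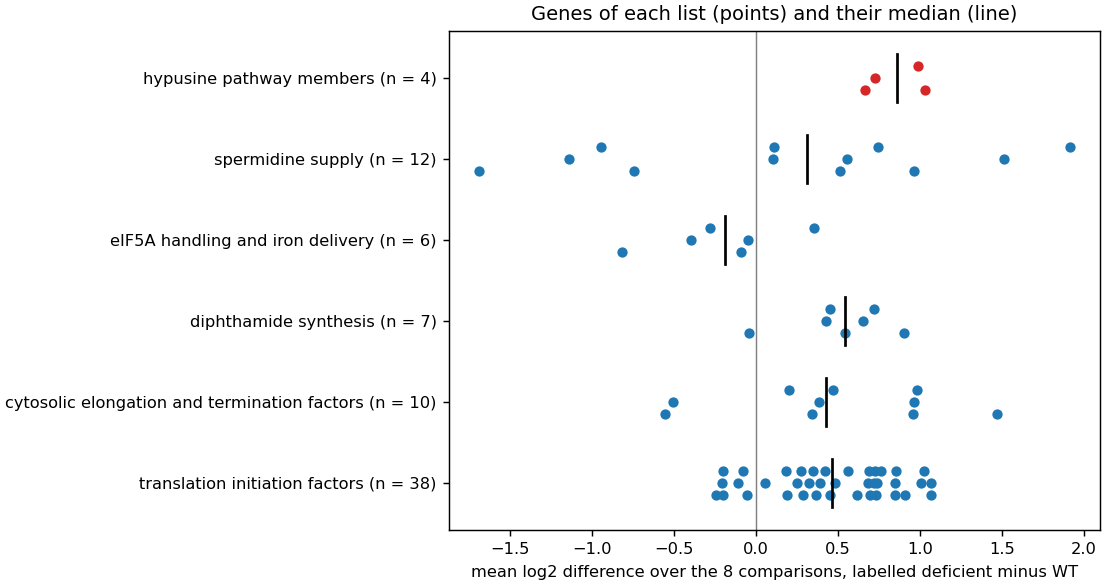
Mean log2 difference over the 8 comparisons (horizontal axis) of each gene of 6 lists (vertical axis, with the number of genes), red for the hypusine pathway genes and blue for the others, with the median of each list as a black line. The hypusine genes lie between 0.67 and 1.03, while the spermidine supply genes reach from -1.69 to 1.91.

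Other genes around the pathway were read from 5 lists chosen by function, with each gene counted in each of the 8 comparisons. Over all tested genes 27.8% of such tests passed as higher and 25.2% as lower. For the hypusine genes these shares were 78.1% (25 of 32) and 0 of 32. Of the genes of spermidine supply, which bring the donor of the aminobutyl group, 37 of 96 tests (38.5%) passed as higher and 28 (29.2%) as lower. *Srm*, which encodes spermidine synthase, rose in 8 of 8 comparisons, by 1.08 to 2.78 on the log2 scale. *Amd2*, a gene of S-adenosylmethionine decarboxylase, rose in 4, with a mean log2 difference of 1.51 over all 8. Its level was low, with a mean of 1.11 CPM in TH1 libraries labelled *Odc*-/- and 0.289 CPM in their WT libraries. *Oaz2*, an antizyme that lowers ornithine decarboxylase, fell in 8 of 8, between -1.66 and -0.71. *Smox*, which encodes spermine oxidase, fell in 7, with a mean of -1.69. These 4 were the highest and the lowest of the list by mean difference.

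Genes of eIF5A handling and iron delivery passed as lower more often than as higher. Of 48 tests, 7 (14.6%) passed as higher and 18 (37.5%) as lower. *Kat2b*, an acetyltransferase known to act on eIF5A, fell in 7 of 8 comparisons (mean log2 difference -0.82), and *Hdac6*, a deacetylase of eIF5A, in 5 (mean -0.39). *Pcbp1*, an iron chaperone, rose in 4 (mean 0.35), and *Xpo4*, the exporter of eIF5A from the nucleus, rose in 1 and fell in 1 (mean -0.05). Diphthamide, a modified histidine of eEF2, is a further residue known from a translation factor. Of the 56 tests of its synthesis genes, 32 (57.1%) passed as higher and 0 as lower. *Dph3* rose in 8 of 8 comparisons (mean 0.90) and *Dph5* in 6 (mean 0.72), while *Dph6* rose in 4 (mean 0.43) and *Dph7* in 1 (mean -0.04). Of 304 tests of translation initiation factors, 175 (57.6%) passed as higher and 11 (3.62%) as lower. *Eif2b3*, a subunit of the exchange factor eIF2B, rose in 8 of 8 (mean 1.07) and *Eif6*, which keeps ribosomal subunits apart, in 7 (mean 1.07). At the lower end, *Eif2s3x* fell in 1 (mean -0.21), and *Eif4a2* rose in 2 and fell in 3 (mean -0.24).

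Elongation and termination factors, the proteins that work beside eIF5A on the ribosome, were split. Of 80 tests, 39 (48.8%) passed as higher and 13 (16.2%) as lower. *Etf1*, which encodes the release factor eRF1, rose in 8 of 8 comparisons, by 0.53 to 1.41, and *Gspt2*, a gene of eRF3, rose in 3 (mean 1.47). The level of *Gspt2* was low, with a mean of 2.83 CPM in TH1 libraries labelled *Odc*-/- and 2.44 CPM in their WT libraries. *Eef2*, the translocation factor, fell in 6 of 8 (mean -0.55) and *Eef1a1*, which brings aminoacyl-tRNA, in 5 (mean -0.50). The hypusine genes therefore had the largest share of tests that passed as higher among the 6 lists, with no test of that difference. Members and lists were chosen with earlier results of these data known, so this order is only a description. The share also counts *Dohh* in libraries labelled *Dohh*-/-, where it is the deleted gene.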

How the data were processed

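Messenger RNA of polarized CD4+ T cells was sequenced from stranded libraries. The deposited values are raw read counts per gene, made by the authors, who trimmed and mapped reads with STAR within deepTools and counted them with featureCounts. Their own normalization and tests used DESeq2, and their processing notes name the build mm10. Versions, the annotation release and the strand setting are not given in the sources used here. Each library's group came from its label, and 1 labelled library (TH2, *Odc*-/-, replicate 1) had no matched column and was not analysed here. Low counts were removed with filterByExpr, counts were scaled by TMM, and each table was fitted with edgeR 4.0.16 (quasi-likelihood, robust, R 4.3.3) over its 8 groups, with Benjamini-Hochberg adjustment over all genes tested. Both tables were joined in 1 fit to compare effects. A gene passed at an adjusted p below 0.05 and was called when it also differed over 2-fold, and standard errors were derived from the F statistic. No 2 libraries of a group held identical values, and 69 pairs differed by at least 2.61 times counting noise (chi-square per degree of freedom). The count model was tested on simulated data. The members and lists were chosen with earlier results of these data known. Named genes were the 4 members, *Odc1*, overlapping genes and copies, the 2 highest and 2 lowest of each list by mean difference, and the 3 genes most correlated with each member, of which 1 is not reported here. Markers of other cells and the subset markers were named in addition. Alternatives were DESeq2 1.42.0, RLE size factors, no filter, a mean count of at least 50, adjusted p alone, a test of the 2-fold change itself, only the 2 groups compared, the replicate number as a block and each library left out. Scaling by library totals alone, leaving out the WT libraries of number 4 of the *Odc* table and, for pairs of WT subsets, a block within each genotype were added after the data were seen. Positions and overlaps came from the GRCm38 annotation and promoters from RefSeq. The p-values cover these libraries only.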

Additional observations from a re-analysis of the deposited data

Results flagged for a closer look

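In groups of 4, 1 library stood far from the other 3 in 3 of the 28 groups of a member with 4 libraries, by a gap over Dixon's 95% critical share of the group's range. Chance alone would give about 1 in 20. *Dohh* in TH1 WT replicate 4 of the *Odc* table was at 47.5 CPM, against 29.5 to 31.6 CPM in the other 3. *Eif5a* in TH1 replicate 1 labelled *Odc*-/- was at 1657 CPM, against 2062 to 2139 CPM. *Eif5a* in TH17 WT replicate 4 of the *Odc* table was at 1453 CPM, against 1013 to 1056 CPM.

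For 2 results a test of the difference itself passed, each for 1 of the 4 members. Of all genes, 34.8% passed the first of these tests and 29.9% the second. The log2 difference of *Eif5a* in the *Odc* table ranged over 0.82 between subsets (adjusted p = 0.036 from edgeR), and the rise of *Eif5a2* in Treg cells was larger by 0.92 in the *Dohh* table than in the *Odc* table (adjusted p = 0.0299 from edgeR). The first did not pass in 8 of 31 fits without 1 library, and the second in 3 of 14.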

How the results depend on the processing

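The direction of all 32 differences of a member was kept with DESeq2, RLE size factors, no low-count filter and a mean count of at least 50, and so was the side of the threshold at an adjusted p of 0.05. Of 220 values of a member without 1 library, 215 kept both. The numbers do not pair deficient with WT libraries (8 of 27 libraries labelled as deficient correlated best with their own number, r from -0.086 to 0.20), but subsets of 1 genotype that share a number correlated (mean r 0.18 to 0.45 in the *Odc* table and 0.063 to 0.36 in the *Dohh* table). With the replicate block, 30 of 32 kept their side and *Eif5a* (0.33, adjusted p = 0.0458 from edgeR) and *Eif5a2* (0.53, 0.00592) passed in TH1 cells of the *Odc* table. The number of members over 2-fold with adjusted p alone in its place was 2 instead of 1 in TH1, 4 instead of 2 in TH2, 3 instead of 0 in TH17 and 3 instead of 2 in Treg cells of the *Odc* table, and 3 instead of 2 in TH1, 4 instead of 3 in TH2, 2 instead of 1 in TH17 and 4 instead of 3 in Treg cells of the *Dohh* table. A test of the 2-fold change itself left 0 in TH1, TH2 and Treg cells of the *Odc* table and 0 in TH1, TH2 and TH17 and 1 in Treg cells of the *Dohh* table. In TH1 cells labelled *Dohh*-/- 1 member was called, not 2, without the filter and with library totals. Leaving out single libraries gave 1 to 2 in TH2 and 1 to 3 in Treg cells of the *Odc* table (1 without replicate 2 of TH2 and without replicate 3 of Treg libraries labelled *Odc*-/-), and 1 to 3 in TH1 cells of the *Dohh* table (1 without replicate 2 labelled *Dohh*-/- or WT replicate 1).

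For genotype by subset and the *Odc* deletion, 1 member passed, against 2 with DESeq2, 0 without the filter, 3 with the replicate block, 3 without the WT libraries of number 4, 2 with library totals and 0 to 2 with 1 library left out. For the *Dohh* deletion 0 passed, against 1 with DESeq2 and 0 to 2 with 1 library left out. For the *Odc* effect against the *Dohh* effect in TH1 cells 0 passed, against 1 without the WT libraries of number 4 and 0 to 2 with 1 library left out. In TH17 cells 0 passed, against 1 with DESeq2, 1 at a mean count of at least 50, 1 with the replicate block and 0 to 1 with 1 library left out. In Treg cells 1 passed, against 0 without the WT libraries of number 4, 0 with library totals and 0 to 2 with 1 library left out. For the pairs of WT subsets the block changed 4 of 48 calls, all to a pass and all in the *Odc* table, and a block of the number within each genotype, added after the data were seen, changed 5 (also *Dohh* in TH17 against Treg cells, adjusted p = 0.0152 from edgeR). The replicate block changed no call of the other tests of a member beyond those given here.

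Differences that did not pass changed sign in a few fits. Library totals, which moved the median of all genes by -0.22 in TH1 cells labelled *Dohh*-/-, gave -0.015 there for *Eif5a2* and -0.15 for the *Odc* against *Dohh* effect on *Dohh* in TH1 cells. That effect was 0.014 on *Dhps* in TH2 cells at a mean count of at least 50 and -0.080 on *Dohh* in Treg cells without the WT libraries of number 4. With 1 library left out, *Eif5a2* in TH17 cells of the *Odc* table lay from -0.11 to 0.17. The *Odc* against *Dohh* effect lay from -0.21 to 0.59 on *Dohh* in TH1, from -0.14 to 0.031 on *Dhps* and -0.18 to 0.051 on *Dohh* in TH2, from -0.25 to 0.010 on *Dhps* in TH17, and from -0.14 to 0.10 on *Dhps* and -0.086 to 0.26 on *Dohh* in Treg cells. The cause of the other changes was not tested. Groups of 3 or 4 libraries limit the precision of each value.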
